A study of Mus musculus with 14 samples.

Results

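DNA replication needs a helicase that is loaded on origins, polymerases with their clamp, and a supply of deoxynucleotides. A set of 37 genes for these jobs was followed in thymic natural killer T (NKT) cells after dexamethasone, a synthetic glucocorticoid. Members were matched by gene symbol and cover the helicase, licensing, the clamp and its loader, polymerases, single-strand binding, Okazaki fragment joining, deoxynucleotide synthesis, chromatin copying, and checkpoint, repair and E2F control. Of these, 35 were listed in the deposited count table and 31 passed the expression filter and were tested. Tyms and Cdc6 were not listed, and Pola1, Dut, Hells and Slbp were listed but too low to be tested. The 31 tested members are part of 7965 tested genes out of 10320 names in the table.

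NKT cells are T cells that read lipids presented by CD1d. The cells were sorted from thymi of young wild-type males. Dexamethasone was injected into the peritoneum at 200 ug per 10 g of body weight, and cells were collected 18 h (n = 5 libraries) or 3 d later (n = 4). The vehicle group (n = 5) received 8% ethanol and was collected at 3 d, so no vehicle group was collected at 18 h and both dexamethasone groups share the same vehicle libraries. Libraries were made by bulk MARS-seq, which counts the 3′ ends of polyadenylated transcripts.

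Before S phase, the origin recognition complex, Cdc6 and Cdt1 load the Mcm2 to Mcm7 ring on DNA, and geminin blocks loading once replication has begun. The ring becomes active when Cdc45 and the GINS complex join it. Primase and polymerase alpha start each strand, replication factor C loads the sliding clamp, and polymerases delta and epsilon extend the DNA. Transcription of many of these genes is switched on late in G1 by E2F factors. In the thymus, young NKT cells proliferate after they have been selected.

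Library totals ran from 977037 to 2203273 counts, so that 1 count was worth 0.471 to 1.11 CPM (counts scaled to an equal library size), and levels below a few CPM rest on a handful of counts. No 2 replicates of a group were alike within counting error, with 3.28 to 14.6 as the chi-square over its degrees of freedom. Nothing in the labels tells whether each replicate is its own mouse or a pool, so the p-values speak for the spread among these libraries only. NKT and T cell markers were present in every library, with summed levels of 2936 to 3515 CPM in vehicle, 1978 to 2428 CPM at 18 h and 2622 to 3273 CPM at 3 d for the 9 listed of 10. Replicates 2 and 3 at 18 h stood apart: Cd8b1, a thymocyte marker, was at 1008 and 648 CPM there and at 9.43 to 71.2 CPM in the other 12 libraries. Not all thymocyte markers rose at 18 h, as Dntt was lower than vehicle over the whole group (log2 fold change -2.51). For the members, the wider lists and the lists of mitosis and E2F genes, results were also computed without the 18 h replicates 2 and 3. Counts and calls that changed are given in part.

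Most replication genes were lower after dexamethasone at both times. At 18 h, 27 of the 31 tested members were called lower than vehicle at an adjusted p below 0.05 (87.1%), none was called higher and 4 were not called; of all tested genes, 17.3% were called lower and 17.0% higher. At 3 d, 25 members were lower (80.6%), none was higher and 6 were not called, beside 13.8% lower and 12.1% higher among all tested genes. The median log2 fold change of the tested members was -1.03 at 18 h and -1.18 at 3 d, while that of all tested genes was 0.01 and 0.03. At 18 h, 19 members had every library below every vehicle library (61.3%, beside 10.3% of all tested genes), and at 3 d it was 22 members (71.0%, beside 12.2%). No member had every library above every vehicle library, beside 9.45% of all tested genes at 18 h and 9.34% at 3 d. Summed over the 35 listed members, the level was 1870 to 2744 CPM in vehicle, 1127 to 1231 CPM at 18 h and 1132 to 1190 CPM at 3 d. In these bulk samples, fewer dividing cells and less of each transcript per cell cannot be told apart.

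The filter asked for about 7.03 CPM in at least 4 libraries. All 31 tested members reached that in the vehicle group, 27 reached it at 18 h and 22 at 3 d. Among those that also reached it in the dexamethasone group, 23 of 27 were lower at 18 h and 16 of 22 were lower at 3 d. The matching share of all tested genes that reached that level in those groups was not computed. Pole, Chaf1a, Clspn and E2f8 reached it in the vehicle group only and so had to be higher there. Without the 18 h replicates 2 and 3, 27 members were lower at 18 h, but not all of them are among the 31, as the filter then tested more. Of the 31, Rfc3 was then not called (-0.61) and none gained a call, with a median of -1.01.

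**Figure D1:**
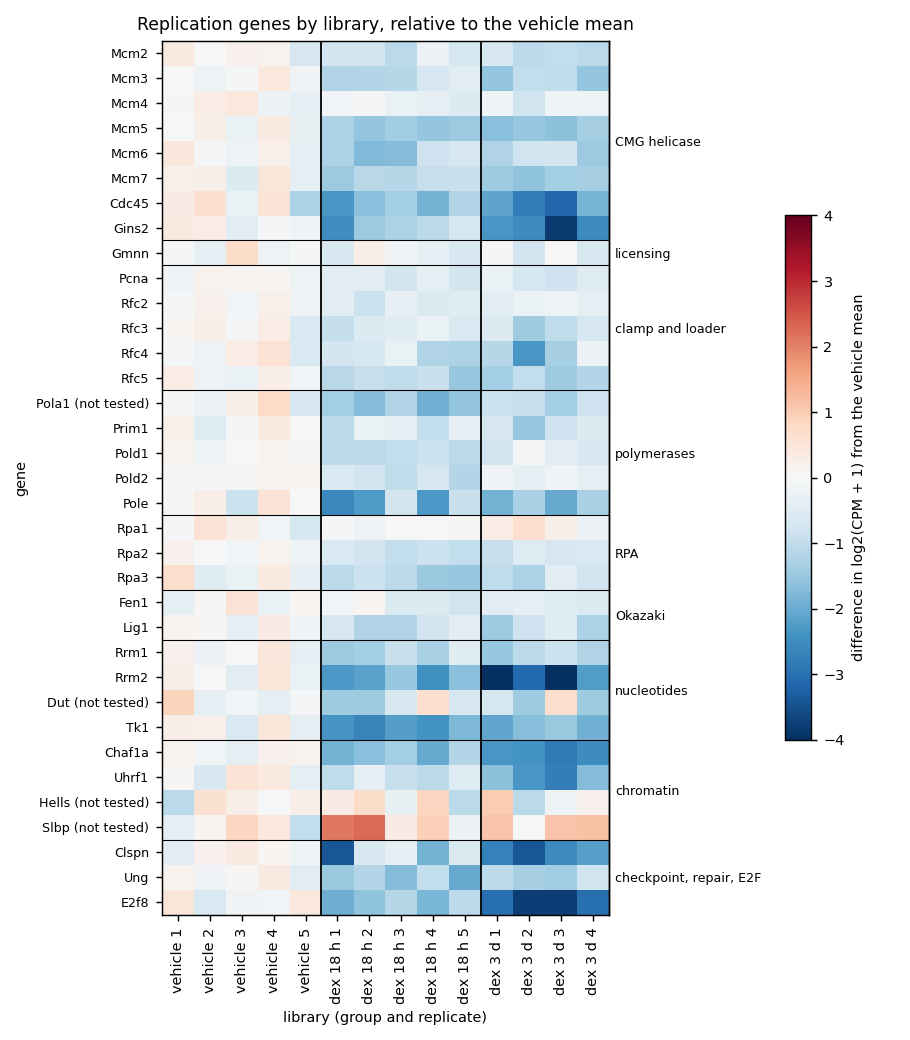
Level of each of the 35 listed members in each of the 14 libraries, as log2(CPM + 1) minus the mean of the member's vehicle libraries (blue lower, red higher), with rows ordered by role and columns by group. Most rows are blue in the 18 h and 3 d columns, while Rpa1, Mcm4 and Gmnn stay pale and the low Slbp is red.

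**Figure D2:**
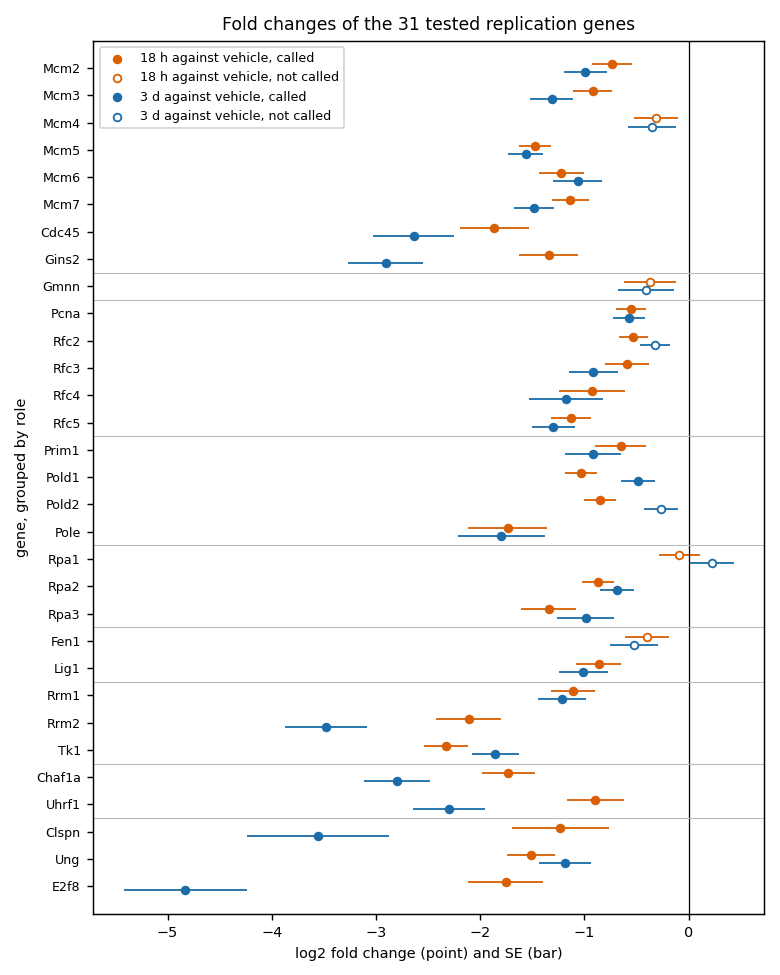
Log2 fold change (± SE) of the 31 tested members at 18 h and at 3 d against vehicle, grouped by role, with filled points for an adjusted p below 0.05. All points but Rpa1 at 3 d lie below 0, and E2f8, Clspn, Rrm2, Gins2 and Chaf1a reach further down at 3 d than at 18 h.

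E2F factors bind short motifs near the start of their targets. Many of the members are known E2F targets, so a higher share with matches was built into the choice of members. RefSeq promoters (250 bases before to 50 after the start, GRCm38.p6, which is mm10) were found for 32 of the 37 members, and Gmnn, Gins2, Rfc2, Pole and Mcm4 had none. The letters searched on both strands were TTTGGCGC, TTTCCCGC, TTTCGCGC and TTTGCCGC, of which neighbouring matches can overlap. At least 1 match was held by 12 of the 32 members (37.5%), by 5.0% of the 6180 tested genes with a promoter and by 2.6% of all 27025 genes with one. The CCAAT letters, the core of a site for the factor NF-Y, were held by 21 members (65.6%), beside 42.8% and 41.1%. The letters TTTGAA, part of an element of mitotic promoters, were held by 5 members (15.6%), beside 13.8% and 20.2%. Among the 24 members lower at 18 h with a promoter, 9 held an E2F match (37.5%). These are a part of the 32, so the 2 shares are not independent. Capitals in the sequences mark E2F matches, and letters run 5′ to 3′ on the gene's strand. Mcm5 (chr8:75109259-75109558, plus strand) holds 2 overlapping matches, Mcm7 (chr5:138171834-138172133, minus strand) holds 2 apart, Pold1 (chr7:44548766-44549065, minus strand) holds 1 after the start, and Tk1 (chr11:117825965-117826264, minus strand) holds none of these letters.
Mcm5: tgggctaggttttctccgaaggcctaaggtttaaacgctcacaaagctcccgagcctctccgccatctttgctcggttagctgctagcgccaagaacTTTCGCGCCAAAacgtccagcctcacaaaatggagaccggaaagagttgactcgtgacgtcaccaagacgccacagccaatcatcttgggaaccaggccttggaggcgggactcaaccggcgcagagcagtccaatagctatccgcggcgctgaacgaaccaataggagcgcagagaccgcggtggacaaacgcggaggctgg
Mcm7: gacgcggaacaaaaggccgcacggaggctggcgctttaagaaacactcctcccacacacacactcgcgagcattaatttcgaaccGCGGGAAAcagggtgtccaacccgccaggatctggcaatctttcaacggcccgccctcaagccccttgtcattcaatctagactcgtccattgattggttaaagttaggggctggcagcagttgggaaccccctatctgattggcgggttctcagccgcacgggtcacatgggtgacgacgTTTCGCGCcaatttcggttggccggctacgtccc
Pold1: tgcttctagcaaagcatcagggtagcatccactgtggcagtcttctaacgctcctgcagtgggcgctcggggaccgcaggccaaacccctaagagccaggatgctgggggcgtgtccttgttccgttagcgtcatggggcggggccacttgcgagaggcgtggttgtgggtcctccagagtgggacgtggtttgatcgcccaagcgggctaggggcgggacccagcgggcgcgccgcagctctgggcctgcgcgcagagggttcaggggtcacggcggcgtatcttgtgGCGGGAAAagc
Tk1: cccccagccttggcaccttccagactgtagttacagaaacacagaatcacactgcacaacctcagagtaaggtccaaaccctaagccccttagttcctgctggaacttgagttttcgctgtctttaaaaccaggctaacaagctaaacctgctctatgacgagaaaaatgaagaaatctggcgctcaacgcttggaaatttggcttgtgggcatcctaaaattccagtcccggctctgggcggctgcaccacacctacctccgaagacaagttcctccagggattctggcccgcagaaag
Of these 4 genes, Tk1 had the largest fitted fall at both times. The 4 were picked by adjusted p at 18 h, the smallest among members with a match and the smallest among those without. Their falls therefore do not compare members with and without a match. A match is a description of letters and not a bound site.

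**Figure D3:**
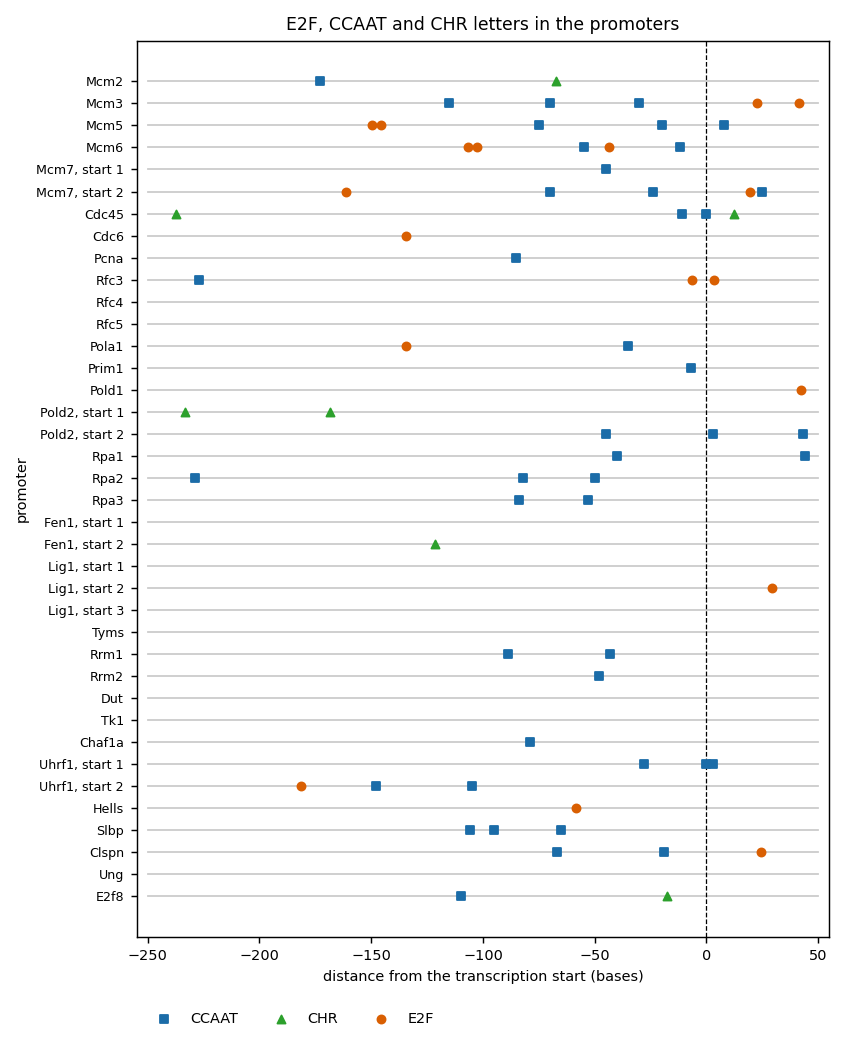
Positions of E2F, CCAAT and CHR (TTTGAA) matches relative to the transcription start (x axis, bases, negative before the start) in the RefSeq promoters of 32 members, 1 row per annotated start, so that genes with several starts have several rows. By gene, CCAAT matches were held by 21 and E2F matches by 12.

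The helicase genes fell together, with 7 of 8 lower at 18 h and the same count at 3 d. Mcm5, a subunit of the ring, was at 194, 226, 159.7, 249 and 156 CPM in vehicle replicates 1 to 5, at 79.4, 65.9, 73.6, 65.1 and 69.4 CPM in the 18 h replicates 1 to 5 and at 60.5, 66.4, 61.8 and 77.1 CPM in the 3 d replicates 1 to 4. The lowest vehicle library, at 156 CPM, was above the highest dexamethasone library, at 79.4 CPM. Its log2 fold change was -1.48 ± 0.15 (adjusted p = 3.8e-07) at 18 h and -1.56 ± 0.17 (adjusted p = 1.3e-06) at 3 d. Gins2, a GINS subunit, was at 48.2, 45.6, 26.9, 35.3 and 33.9 CPM in vehicle, 5.85, 12.8, 14.7, 16.97 and 22.7 CPM at 18 h and 6.64, 5.69, 1.69 and 5.51 CPM at 3 d. Neither dexamethasone group overlapped vehicle, and the 3 d libraries lay mostly below those at 18 h, overlapping only at 18 h replicate 1. Its log2 fold change was -1.34 ± 0.28 (adjusted p = 0.001) at 18 h and -2.91 ± 0.36 (adjusted p = 8.4e-06) at 3 d. The 3′ end of Gins2 overlaps that of Gse1 on the other strand, and strand handling is not given, so reads from the pair cannot be told apart.

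Mcm4, another subunit of the ring, was the exception. It was at 27.4, 35.6, 38.6, 24.3 and 21.6 CPM in vehicle, 26.8, 27.4, 23.5, 22.2 and 19.2 CPM at 18 h and 25.2, 16.1, 25.4 and 24.8 CPM at 3 d, with the groups overlapping. The estimates were -0.31 ± 0.21 (adjusted p = 0.265) and -0.35 ± 0.23 (adjusted p = 0.265), so no fall was detectable. The other ring subunits and Cdc45 were lower at both times. Mean levels of Mcm7 were 235 ± 67.05 CPM in vehicle, 106 ± 15.8 CPM at 18 h and 83.8 ± 6.88 CPM at 3 d (SD). Log2 fold changes at 18 h and 3 d were -0.73 and -0.99 for Mcm2, -0.92 and -1.31 for Mcm3, -1.22 and -1.07 for Mcm6, and -1.14 and -1.48 for Mcm7. Cdc45, which activates the ring, had -1.86 and -2.64. Mcm7 shares its 3′ end with Cops6 on the other strand, whose log2 fold change was -0.42 at 18 h (adjusted p = 0.0204).

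Of the licensing genes, Gmnn, which encodes geminin, was measured and Cdc6 was not listed. Gmnn was at 28.4, 22.2, 49.3, 25.4 and 27.8 CPM in vehicle, 18.4, 35.1, 26.5, 22.2 and 18.5 CPM at 18 h and 27.9, 17.1, 29.6 and 18.6 CPM at 3 d. The groups overlapped, and vehicle replicate 3 was the highest library of all. Its estimates of -0.37 ± 0.25 (adjusted p = 0.258) at 18 h and -0.41 ± 0.27 (adjusted p = 0.269) at 3 d did not pass the test.

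All 5 clamp and clamp loader genes were lower at 18 h, and 4 of them at 3 d. Pcna, the sliding clamp, was at 214, 260.1, 249, 250.1 and 204 CPM in vehicle, 171, 170.3, 142, 178 and 140.1 CPM at 18 h and 196, 143, 130.4 and 163 CPM at 3 d. Every vehicle library was above every dexamethasone library, and the gap was narrow, with 204 CPM as the lowest vehicle value and 196 CPM as the highest value after dexamethasone. The log2 fold change was -0.55 ± 0.14 (adjusted p = 0.00436) at 18 h and -0.57 ± 0.15 (adjusted p = 0.00818) at 3 d. Pcna has 2 annotated processed pseudogenes, so some of its reads may be shared with these copies. Rfc5, a subunit of the loader, was at 63.4, 44.5, 42.7, 62.4 and 47.8 CPM in vehicle, 23.4, 26.5, 25.02, 27.3 and 17.2 CPM at 18 h and 19.3, 25.6, 18.6 and 22.04 CPM at 3 d. Neither dexamethasone group overlapped vehicle, and the log2 fold changes were -1.13 ± 0.19 (adjusted p = 1.3e-04) and -1.30 ± 0.21 (adjusted p = 1.5e-04). Its 3′ end overlaps that of Wsb2 on the other strand.

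The other loader subunits were lower at 18 h. Rfc2 had -0.53 ± 0.14 (adjusted p = 0.00539) at 18 h and was not called at 3 d (-0.32 ± 0.15, adjusted p = 0.11). Its 3′ end overlaps that of Lat2, whose log2 fold change was -2.01 at 18 h (adjusted p = 1.9e-04). Rfc3 had -0.59 and -0.92, and Rfc4 had -0.93 and -1.18, at 18 h and 3 d. Rfc4 ends against Eif4a2, which rose by a log2 of 1.08 at 18 h (adjusted p = 0.00523). Single libraries decided calls here. The Rfc3 call at 18 h (adjusted p = 0.037) was lost when any one of vehicle replicates 1, 2 and 4 or of 18 h replicates 1, 2, 3 and 5 was left out, and its estimate then ranged from -0.60 to -0.50. The Rfc4 call was lost at 18 h without vehicle replicate 4 (-0.75) or 18 h replicates 4 or 5 (-0.82 each). It was lost at 3 d without vehicle replicate 4 or 3 d replicates 2 or 3 (-1.01, -0.93 and -1.09).

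The 4 tested polymerase genes were lower at 18 h, and 3 of them were called at 3 d. Pold1, the catalytic subunit of polymerase delta, was at 92.9, 73.3, 85.4, 92.7 and 81.7 CPM in vehicle, 40.1, 39.4, 42.7, 46.2 and 39.8 CPM at 18 h and 49.8, 79.7, 61.8 and 54.4 CPM at 3 d. The 18 h libraries lay far below vehicle, and the 3 d libraries lay above all 18 h libraries and reached into the vehicle range. The log2 fold change was -1.03 ± 0.16 (adjusted p = 4.3e-05) at 18 h and -0.49 ± 0.16 (adjusted p = 0.0323) at 3 d. The call at 3 d was lost without any one of vehicle replicates 1 and 4 and of 3 d replicates 1, 3 and 4, with estimates from -0.49 to -0.42. Pold2, an accessory subunit of the same enzyme, was at 75.1, 75.6, 74.2, 87.8 and 83.3 CPM in vehicle, 51, 46.2, 39, 49.5 and 34.3 CPM at 18 h and 71.1, 60.7, 72 and 59.9 CPM at 3 d. The 3 d libraries lay between the other groups without overlapping either, yet only the 18 h difference from vehicle was called. Its estimates were -0.85 ± 0.15 (adjusted p = 2.5e-04) and -0.26 ± 0.16 (adjusted p = 0.227).

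Pole, the catalytic subunit of polymerase epsilon, had log2 fold changes of -1.74 ± 0.38 (adjusted p = 0.00136) at 18 h and -1.80 ± 0.42 (adjusted p = 0.00347) at 3 d. Prim1, the catalytic subunit of primase, had -0.65 ± 0.24 (adjusted p = 0.0422) and -0.92 ± 0.27 (adjusted p = 0.0153). Its call at 18 h was lost when any one of vehicle replicates 1, 4 and 5 or 18 h replicates 1, 3 and 4 was left out (-0.71 to -0.55), and its call at 3 d without 3 d replicate 2 (-0.76). Pola1, the catalytic subunit of polymerase alpha, was not tested in the filtered table, with 7.61, 6.67, 9.66, 14.4 and 4.63 CPM in vehicle, 2.51, 1.71, 2.94, 1.41 and 2.06 CPM at 18 h and 3.99, 3.79, 2.54 and 4.13 CPM at 3 d. No dexamethasone library overlapped vehicle, and with no filter on low counts the log2 fold change was -2.05 ± 0.41 at 18 h (adjusted p = 6.6e-04) and -1.26 ± 0.41 at 3 d (adjusted p = 0.0314).

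Of the 3 subunits of replication protein A, which coats single-stranded DNA, Rpa2 and Rpa3 were lower at both times and Rpa1 was not called. Rpa2 was at 90.3, 80.02, 73.7, 88.3 and 69.4 CPM in vehicle, 51.8, 46.2, 39.7, 43.4 and 39.8 CPM at 18 h and 41.9, 55.9, 49.97 and 52.3 CPM at 3 d. Neither dexamethasone group overlapped vehicle. Its log2 fold change was -0.87 ± 0.15 (adjusted p = 1.9e-04) at 18 h and -0.69 ± 0.16 (adjusted p = 0.00392) at 3 d. Rpa3, the smallest subunit, was at 54.3, 23.3, 27.5, 43.6 and 26.2 CPM in vehicle, 15.1, 17.98, 15.5, 11.3 and 10.99 CPM at 18 h and 15.9, 13.3, 23.7 and 18.6 CPM at 3 d. It did not overlap vehicle at 18 h and did at 3 d in replicate 3, and the log2 fold change was -1.34 ± 0.26 (adjusted p = 5.0e-04) and -0.99 ± 0.27 (adjusted p = 0.0117). Rpa1, the largest subunit, was at 69.02, 108, 86.95, 65.7 and 43.9 CPM in vehicle, 68.6, 61.6, 71.4, 73.1 and 73.5 CPM at 18 h and 87.7, 115, 84.7 and 61.3 CPM at 3 d. The groups overlapped throughout, and the estimates were -0.09 ± 0.20 (adjusted p = 0.757) and 0.23 ± 0.21 (adjusted p = 0.443). The differences between the 3 subunits were not tested.

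Of the Okazaki fragment genes, Lig1 fell and Fen1 was not called. Lig1, the ligase that seals the fragments, was at 58.4, 54.5, 39.7, 65.7 and 47.8 CPM in vehicle, 32.6, 22.3, 22.1, 30.6 and 37.8 CPM at 18 h and 18.6, 29.4, 37.3 and 21.4 CPM at 3 d. No library of either dexamethasone group reached the lowest vehicle library, and the log2 fold changes were -0.86 ± 0.21 (adjusted p = 0.0037) and -1.01 ± 0.23 (adjusted p = 0.0034). Fen1, the nuclease that trims the flaps, was at 34.5, 46.7, 68.1, 37.5 and 47.8 CPM in vehicle, 42.6, 49.6, 30.2, 30.6 and 26.1 CPM at 18 h and 33.9, 35.1, 31.3 and 30.3 CPM at 3 d. Its libraries overlapped vehicle at both times, and the estimates were -0.40 ± 0.21 (adjusted p = 0.144) and -0.52 ± 0.23 (adjusted p = 0.0926).

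Deoxynucleotide genes held the largest fitted falls among the 31 tested members at 18 h. Tk1, the thymidine kinase of the salvage pathway, was at 191, 184, 104, 224 and 123 CPM in vehicle, 30.1, 24.8, 33.9, 29.7 and 45.3 CPM at 18 h and 37.2, 48.4, 56.8 and 41.3 CPM at 3 d. The groups were far apart, with 104 CPM as the lowest vehicle value and 56.8 CPM as the highest value after dexamethasone. The level was 5.02-fold lower at 18 h (-2.33 ± 0.21 on the log2 scale, adjusted p = 6.4e-08) and 3.61-fold lower at 3 d (-1.85 ± 0.23, adjusted p = 6.7e-06). Rrm2, the small subunit of ribonucleotide reductase, was at 57.3, 48.9, 35.6, 67.9 and 40.1 CPM in vehicle, 9.20, 10.3, 16.2, 8.01 and 14.4 CPM at 18 h and 1.99, 4.74, 0.847 and 9.64 CPM at 3 d. Again no library overlapped vehicle, and the 3 d replicates 1 to 4 held 3, 5, 1 and 14 counts. The log2 fold change was -2.11 ± 0.31 (adjusted p = 3.4e-05) at 18 h and -3.48 ± 0.39 (adjusted p = 2.9e-06) at 3 d. Rrm1, the large subunit of the same enzyme, had -1.11 ± 0.21 (adjusted p = 4.1e-04) and -1.21 ± 0.23 (adjusted p = 7.2e-04). Dut, which removes dUTP, was listed at no more than 4.06 CPM in any library, with 16 counts over all vehicle and 5 over all 3 d libraries, too few to compare.

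**Figure D4:**
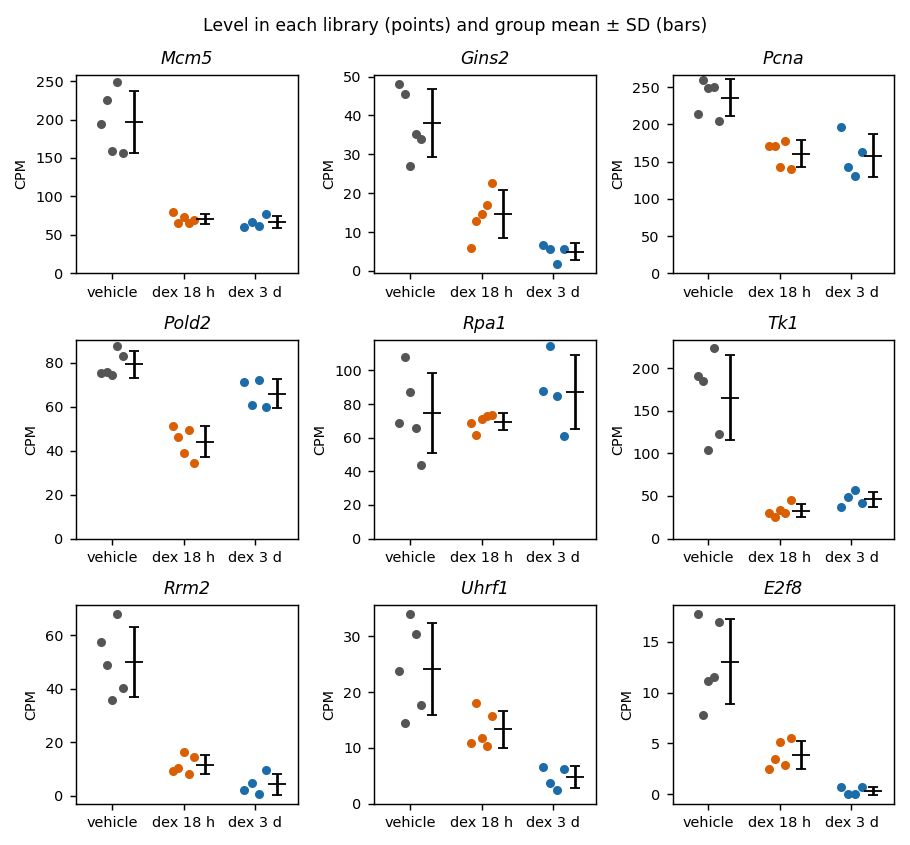
CPM of Mcm5, Gins2, Pcna, Pold2, Rpa1, Tk1, Rrm2, Uhrf1 and E2f8 in each library, by group, on linear axes, with 1 point per library, a short line at the group mean and error bars of 1 SD. Gins2, Rrm2, Uhrf1 and E2f8 are lower at 3 d than at 18 h, Pold2 is higher, and Rpa1 overlaps between groups.

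Both tested genes that copy chromatin with the DNA were lower at both times. Chaf1a, the large subunit of the histone chaperone CAF-1, was at 26.9, 22.2, 18.8, 27.6 and 26.98 CPM in vehicle, 5.85, 6.85, 8.83, 5.19 and 10.3 CPM at 18 h and 3.99, 3.79, 2.54 and 3.44 CPM at 3 d. The 3 groups did not overlap, in that order from high to low. The 3′ end of Chaf1a overlaps that of Ubxn6 on the other strand. The log2 fold change was -1.73 ± 0.26 (adjusted p = 3.3e-05) at 18 h and -2.80 ± 0.32 (adjusted p = 2.6e-06) at 3 d. Uhrf1, which brings the maintenance methyltransferase Dnmt1 to new DNA, was at 23.9, 14.4, 34.1, 30.4 and 17.7 CPM in vehicle, 10.9, 17.98, 11.8, 10.4 and 15.8 CPM at 18 h and 6.64, 3.79, 2.54 and 6.20 CPM at 3 d. At 18 h its libraries overlapped vehicle, and at 3 d they lay below every library of the other groups. The estimates were -0.89 ± 0.27 (adjusted p = 0.0153) and -2.30 ± 0.34 (adjusted p = 6.1e-05), and the 18 h call was lost without vehicle replicate 4 (-0.80). Hells, a chromatin remodeler, was at 0 to 3.32 CPM in all libraries. Slbp, which binds histone mRNA, was at 0.507, 1.11, 2.54, 1.66 and 0 CPM in vehicle, 7.53, 8.56, 1.47, 2.83 and 0.687 CPM at 18 h and 3.32, 0.948, 3.39 and 3.44 CPM at 3 d. With no filter on low counts its estimate was 1.63 ± 0.69 at 18 h (adjusted p = 0.0785), and it was not called.

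The repair, checkpoint and control genes were lower at both times. Ung, which removes uracil from DNA, was at 43.6, 35.6, 41.2, 50.8 and 29.3 CPM in vehicle, 13.4, 17.1, 11.04, 19.3 and 8.93 CPM at 18 h and 18.6, 15.2, 14.4 and 22.04 CPM at 3 d. Neither dexamethasone group overlapped vehicle, and the log2 fold changes were -1.51 ± 0.23 (adjusted p = 5.3e-05) and -1.19 ± 0.25 (adjusted p = 0.0015). E2f8, a repressor of the E2F family that is itself switched on in S phase, was at 17.8, 7.78, 11.2, 11.6 and 16.96 CPM in vehicle, 2.51, 3.42, 5.15, 2.83 and 5.49 CPM at 18 h and 0.664, 0, 0 and 0.689 CPM at 3 d. No 2 groups overlapped, and 2 of the 4 libraries at 3 d had no count. The 3 d libraries held 2 counts in all against 107 in vehicle, a ratio per scaled count of 0.0286 (95% interval 0.00342 to 0.106, counting error only). Its fitted log2 fold changes were -1.76 ± 0.36 (adjusted p = 8.1e-04) at 18 h and -4.83 ± 0.59 (adjusted p = 6.7e-06) at 3 d, the latter dependent on the prior count. Clspn, which passes the stalled fork signal to Chk1, had 4 counts in all at 3 d against 79 in vehicle, a ratio of 0.0775 (0.0206 to 0.206). At 18 h it was at 0, 5.99, 7.36, 1.89 and 6.18 CPM against 7.10, 11.1, 12.7, 10.5 and 8.48 CPM in vehicle (-1.23 ± 0.46, adjusted p = 0.0432). This call was lost in 8 of the 14 fits that each left out 1 library, namely without vehicle replicates 2, 3, 4 or 5, 18 h replicates 1 or 4, or 3 d replicates 1 or 3, over which estimates ranged from -1.28 to -0.95.

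Between the times, fewer replication genes were called than against vehicle. Comparing 3 d with 18 h, 4 of 31 members were lower (12.9%, beside 6.91% of all tested genes). Another 2 were higher (6.45%, beside 4.78%), and 25 were not called. Libraries of the 2 times did not overlap for 3 members lower at 3 d (Chaf1a, Uhrf1 and E2f8) and for 2 higher (Pold1 and Pold2). These were 9.68% and 6.45% of the members, near the 6.14% and 5.01% of all tested genes. E2f8 was lower at 3 d (-3.08 ± 0.70, adjusted p = 0.00533), as were Gins2 (-1.56 ± 0.38, adjusted p = 0.00908), Uhrf1 (-1.41 ± 0.36, adjusted p = 0.0128) and Rrm2 (-1.37 ± 0.44, adjusted p = 0.0443). Pold1 and Pold2 were higher, with log2 differences of 0.55 ± 0.17 (adjusted p = 0.0369) and 0.58 ± 0.16 (adjusted p = 0.0217). Just outside the threshold were Clspn (-2.33, adjusted p = 0.0513) and Chaf1a (-1.07, adjusted p = 0.0516). The E2f8 and Gins2 calls held in every fit that left out 1 library, while the Uhrf1 call was lost without 3 d replicate 3 (-1.205).

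The other calls between the times were less firm. Rrm2 lost its call in 9 of 14 such fits, without any one of vehicle replicates 1, 2 and 5, 18 h replicates 2, 3 and 5 or 3 d replicates 1, 2 and 3, with estimates from -1.41 to -1.06. Pold1 lost it in 6 (each 18 h replicate but the fourth, and 3 d replicates 2 and 3, estimates 0.40 to 0.55), and Pold2 in 4 (18 h replicates 3 and 5, 3 d replicates 1 and 3, estimates 0.50 to 0.54). Without the 18 h replicates 2 and 3 together, 2 members were lower and none was higher, and Uhrf1 was at -1.30 without a call. As vehicle was collected at 3 d only, a change between the times and a difference between vehicle cells of the 2 times cannot be told apart.

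Other genes of the pathway, listed by function but with earlier results of these data known, were also mostly lower where they were called. Of 42 further replication genes, 41 were listed and 31 tested. At 18 h, 13 were lower (41.9%, beside 17.3% of all tested genes) and none was higher (beside 17.0%). At 3 d, 12 were lower (38.7%, beside 13.8%) and 2 were higher (6.45%, beside 12.1%). The larger part was not called, with 18 of the 31 at 18 h and 17 at 3 d. Asf1b, a histone chaperone, fell most clearly, from 77.5 ± 14.6 CPM in vehicle to 25.3 ± 9.53 CPM at 18 h and 6.53 ± 3.40 CPM at 3 d, with -1.64 ± 0.24 (adjusted p = 3.3e-05) and -3.49 ± 0.31 (adjusted p = 1.3e-07). Gins1, another GINS subunit, had log2 fold changes of -1.76 and -2.03. Pola2, the accessory subunit of polymerase alpha, had -0.83 at 18 h and -0.82 at 3 d. Recql4, a RecQ helicase, had -1.32 and -2.17, and all of these were called. Those higher at 3 d were Dbf4, the activating subunit of the Cdc7 kinase (0.89 ± 0.27, adjusted p = 0.0205), and Chtf8, part of an alternative clamp loader (0.61 ± 0.19, adjusted p = 0.0234). Over this list and the nucleotide genes together, the count of 2 higher at 3 d was 1 without any one of vehicle replicates 1, 2 and 5 and 3 d replicates 2 and 3, and 4 without any one of vehicle replicate 3 and 18 h replicates 2 and 5.

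Of 30 further nucleotide genes, 26 were listed and 22 tested. At 18 h, 13 were lower (59.1%, beside 17.3% of all tested genes) and 1 was higher (4.55%, beside 17.0%). At 3 d 11 were lower (50%, beside 13.8%) and none was higher (beside 12.1%). Mthfd1, which carries folate one-carbon units, fell from 69.9 ± 8.38 CPM in vehicle to 23.7 ± 9.20 CPM at 18 h (-1.53 ± 0.22, adjusted p = 2.4e-05). At 3 d Mthfd1 was also lower than vehicle (-1.01 ± 0.23, adjusted p = 0.00298). Shmt2, the mitochondrial serine hydroxymethyltransferase, had -1.35 ± 0.20 (adjusted p = 4.9e-05) at 18 h and -1.39 ± 0.22 (adjusted p = 1.4e-04) at 3 d. Paics, an enzyme of purine synthesis, had -1.13 ± 0.17 (adjusted p = 5.3e-05) and -1.26 ± 0.19 (adjusted p = 6.7e-05). Dctpp1, which breaks down dCTP, was also lower at 3 d (-1.15 ± 0.19, adjusted p = 1.5e-04). The gene that rose at 18 h was Samhd1, which degrades deoxynucleotide triphosphates, from 85.1 ± 6.58 CPM in vehicle to 409.7 ± 103 CPM (2.26 ± 0.20, adjusted p = 3.2e-08). At 3 d it was at 126 ± 43.3 CPM, not called against vehicle (0.55 ± 0.21, adjusted p = 0.052) and lower than at 18 h (-1.71 ± 0.21, adjusted p = 1.3e-05).

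Genes of mitosis were mostly lower at both times. Of 33 such genes, 29 were listed and 27 tested. At 18 h 15 were lower (55.6%, beside 17.3% of all tested genes), and at 3 d 24 were (88.9%, beside 13.8%). Comparing 3 d with 18 h, 23 were lower (85.2%, beside 6.91%). None was higher in these comparisons, beside 17.0%, 12.1% and 4.78% of all tested genes. The median log2 fold change of the mitosis genes was -0.85 at 18 h, -3.24 at 3 d and -2.18 between the times, where the replication genes had -0.12. Mki67, a marker of cycling cells, was at 33.2 ± 13.7 CPM in vehicle, 40.6 ± 19.4 CPM at 18 h and 5.02 ± 2.42 CPM at 3 d, with 0.23 ± 0.34 (adjusted p = 0.629) and -2.74 ± 0.48 (adjusted p = 5.2e-04). Top2a, which untangles chromosomes, had -0.81 ± 0.32 (adjusted p = 0.0571) and -3.50 ± 0.43 (adjusted p = 3.0e-05), and Ccna2, the cyclin of S phase and G2, had -1.78 ± 0.38 (adjusted p = 0.00128) and -4.07 ± 0.54 (adjusted p = 2.5e-05). The mean log2(CPM + 1) of the mitosis list was 4.71 to 5.30 in vehicle, 3.34 to 4.77 at 18 h and 2.08 to 2.65 at 3 d, and that of the members was 5.01 to 5.51, 4.17 to 4.40 and 3.96 to 4.21. The members' mean minus that of the mitosis list was 0.20 to 0.35 in vehicle. It was 0.55, -0.27, -0.38, 1.01 and 0.02 in the 18 h replicates 1 to 5, and 1.56 to 1.88 at 3 d. The 18 h libraries with high Cd8b1 also held the highest mitosis levels of their group, and the part of the former in the latter was not tested. The difference between the lists was not tested either. Without the 18 h replicates 2 and 3, an alternative chosen after seeing the data, 17 mitosis genes were lower at 18 h, and the 23 lower at 3 d than at 18 h became 15. Top2a was then lower at 18 h (-1.41, adjusted p = 0.00101), the Mki67 estimate at 18 h changed sign to -0.26 (adjusted p = 0.621), and Ccna2, lower between the times in the fit of all libraries (-2.29, adjusted p = 0.0155), was not called between them (-1.32, adjusted p = 0.134).

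**Figure D5:**
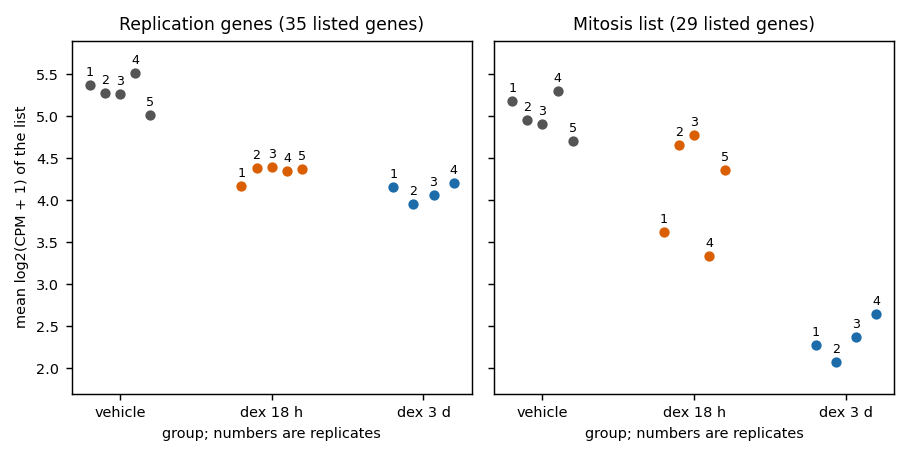
Mean log2(CPM + 1) per library (y axis) of the 35 listed members, at left, and of the 29 listed mitosis genes, at right, by group, with 1 numbered point per replicate. The mitosis list lies at 3.34 to 4.77 at 18 h and at 2.08 to 2.65 at 3 d, while the members lie at 4.17 to 4.40 and 3.96 to 4.21.

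Of 15 genes that control E2F activity and entry into S phase, 14 were listed and 12 tested. At 18 h, 3 were lower (25% of the 12, beside 17.3% of all tested genes) and 1 was higher (8.33%, beside 17.0%). At 3 d 4 were lower (33.3%, beside 13.8%) and 1 was higher (8.33%, beside 12.1%). The higher genes, named after their values were seen, code for pocket proteins of the RB family, which bind E2F factors: Rbl1 at 18 h (1.01 ± 0.22, adjusted p = 0.00168) and Rbl2 at 3 d (0.64 ± 0.20, adjusted p = 0.024). Of the lower genes, 2 were likewise named after their values were seen. Ccne1, a cyclin of S phase entry, had -1.13 ± 0.28 at 18 h (adjusted p = 0.00354) and -1.77 ± 0.32 at 3 d (adjusted p = 4.9e-04), and E2f4, which acts mostly as a repressor, had -0.44 ± 0.14 at 18 h (adjusted p = 0.02). E2f1 and E2f2, activators of the family, were at 20.5 ± 5.60 and 40.4 ± 7.28 CPM in vehicle. At 18 h neither passed the test (-0.87 ± 0.34, adjusted p = 0.055, and -0.17 ± 0.25, adjusted p = 0.639), and at 3 d both were lower (-2.43 ± 0.44, adjusted p = 5.0e-04, and -2.42 ± 0.33, adjusted p = 2.5e-05). E2f7, the partner of E2f8, was at no more than 4.57 CPM in any library and was not tested. Myc, which promotes growth and nucleotide synthesis, was lower at both times, with log2 fold changes of -0.51 ± 0.17 (adjusted p = 0.0266) and -0.89 ± 0.19 (adjusted p = 0.00163). With the 18 h replicates 2 and 3 left out, only 1 gene of the list was lower at 18 h, and Myc was not called there (-0.41, adjusted p = 0.131). At least 1 of Ccne1 and E2f4 therefore also lost its 18 h call in that fit.

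Markers of other cells moved beside these results. Summed over the 9 listed of 10 thymocyte markers, the level was 76.1 to 180.5 CPM in vehicle, 41.0 to 1316 CPM at 18 h and 28.9 to 52.5 CPM at 3 d, and at 3 d 3 to 5 of the 9 had no count in a library. Of the 5 tested, Dntt was lower at 18 h (-2.51 ± 0.57, adjusted p = 0.00263) and at 3 d (-5.24 ± 0.87, adjusted p = 4.0e-04), and Themis was higher at 18 h (1.34 ± 0.34, adjusted p = 0.00461). Cd8b1 (2.86 ± 1.15, adjusted p = 0.0759 at 18 h), Cd8a and Ly6d were called at neither time. All 10 macrophage markers were listed and summed to 812 to 1659 CPM in vehicle, 430.4 to 2003 CPM at 18 h and 2051 to 7656 CPM at 3 d. Apoe made up most of the 3 d sum, with a mean of 3126 CPM of 4485 CPM. Of the 8 tested, 2 were higher at 18 h (Cd68 and Mrc1) and 2 at 3 d (Apoe and C1qa). In each comparison with vehicle the other 6 were not called. B cell markers (2 of 6 listed) stayed at or below 14.6 CPM and stromal markers (3 of 10 listed) at 21.2 to 82.4 CPM. Zbtb16, the transcription factor that defines NKT cells, was at 41.7 to 81.7 CPM in vehicle, 18.8 to 77.3 CPM at 18 h and 13.95 to 26.6 CPM at 3 d. Of the 9 tested NKT and T cell markers, 4 were lower at 18 h (Cd3e, Cd44, Il2rb, Tbx21), and 4 were lower at 3 d (Cd3d, Cd3e, Icos, Zbtb16). Il7r was higher at both times, and in each comparison the other 4 were not called. The part of these shifts in the members' levels was not tested. In the authors' deposited table, at an adjusted p below 0.05, 28 of the 35 listed members were lower at 18 h and 25 at 3 d, none was higher, and 5 were lower and 2 higher at 3 d than at 18 h. The share of all genes called in that table was not counted, so these counts have no background beside them.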

How the data were processed

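Thymic NKT cells were profiled by bulk MARS-seq in 14 libraries, grouped by their labels into vehicle (n = 5), dexamethasone 18 h (n = 5) and dexamethasone 3 d (n = 4). Per the submitters' processing notes, the build is mm10; the tools named there, without their roles, include STAR 2.5.2b, HTSeq, cutadapt, bcl2fastq and DESeq2. Strand and molecular identifier handling was not given in these sources, so intervals cover counting error only. The authors deposited raw counts per gene, which were the values tested here. A deposited signal, the count over a size factor for each library, was not tested. The deposited log2 columns hold regularised values and fold changes, and the deposited p-value columns belong to the authors' own comparisons; only the fold changes and adjusted p were used, to count the authors' calls. The table's 3 other value columns, means over libraries, were not used. Names turned into dates (17, holding 0.102% to 0.147% of a library) were left out.

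The test was edgeR's quasi-likelihood test (edgeR 4.0.16, R 4.3.3) on genes kept by filterByExpr. It was 1 robust fit of the 3 groups, scaled by TMM, without covariates. Two-sided p-values were Benjamini-Hochberg adjusted over the 7965 tested genes, and a call needed an adjusted p below 0.05. Fold changes are log2 with SE, and levels are CPM after TMM scaling. The SE was worked back as the absolute log2 fold change over the square root of the test's F value. It is therefore approximate, above all for genes with few counts. The steps were tested on simulated data. Alternatives were DESeq2 1.42.0, voom with sample quality weights in limma 3.58.1, RLE and upper quartile scaling, no filter, a filter at a mean of 20 CPM, fits of only the groups compared, replicate blocks, and leaving out each library, or the 18 h replicates 2 and 3 together. Members and lists were chosen with earlier results of these data known. Library values are printed for the 2 members of each role with the smallest adjusted p and for members called in neither comparison with vehicle, and for those called between the times; from each wider list, the 3 lower and 3 higher genes with the smallest adjusted p per comparison with vehicle are named. Promoters are from RefSeq (GRCm38.p6), and gene ends from GENCODE annotation of mm10.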

Additional observations from a re-analysis of the deposited data

Results flagged for a closer look

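In groups of 4 or 5 libraries, 7 of 126 sets of values held 1 library that stood apart from the rest (5.56%), where chance gives about 1 in 20. Mcm3 was at 144.6 CPM in vehicle replicate 4, with the others at 93.4 to 106 CPM. Mcm4 was at 16.1 CPM in 3 d replicate 2, with the others at 24.8 to 25.4 CPM. Gmnn was at 49.3 CPM in vehicle replicate 3, with the others at 22.2 to 28.4 CPM. Dut was at 4.06 CPM in vehicle replicate 1 and at 3.30 CPM in 18 h replicate 4, where the others held at most 1.54 and 0.736 CPM. Slbp was at 0.948 CPM in 3 d replicate 2, with the others at 3.32 to 3.44 CPM. The members' mean log2(CPM + 1) was 4.17 in 18 h replicate 1, with the others at 4.34 to 4.40.

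Against the shared vehicle group, 6 of the 31 tested members differed in effect between 3 d and 18 h by the direct test. Of all tested genes, 11.7% were called in this test, in either direction. The log2 difference of 3 d from 18 h was -1.56 for Gins2, -1.37 for Rrm2, -1.41 for Uhrf1 and -3.08 for E2f8, all lower at 3 d. It was 0.55 for Pold1 and 0.58 for Pold2, both higher at 3 d. In 14 fits that left out 1 library, Rrm2 lost its call in 9, Pold1 in 6, Pold2 in 4 and Uhrf1 in 1.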

How the results depend on the processing

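Of the 27 members lower at 18 h, 22 were lower in every alternative that tested them, and of the 25 lower at 3 d, 22 were. All alternatives tested 18 and 16 of these, since the filter at a mean of 20 CPM left 23 members, of which 19 were lower at 18 h and 17 at 3 d. With that filter, 1074 genes in all were lower at 18 h and 885 at 3 d, beside 1381 and 1100 in the main fit. Leaving out 1 library at a time gave 22 to 28 lower members at 18 h and 23 to 25 at 3 d, with medians of -1.11 to -0.95 and -1.28 to -1.02. Over the same fits, 1087 to 1546 genes in all were lower at 18 h and 802 to 1293 at 3 d, so calls in general moved too. Between the times, the 4 lower members became 2 to 6, the 2 higher became 0 to 2, and the median ran from -0.18 to -0.07. The 2 higher wider-list genes at 3 d became 1 to 4, and the 3 higher between the times became 1 to 4. Fitting only the groups compared gave 4 higher wider-list genes at 3 d, 2 lower and 0 higher members between the times, and 1 higher wider-list gene between them. Without the 18 h replicates 2 and 3 these counts were again 4, 2, 0 and 1, the lower mitosis genes between the times were 15, the lower E2F regulators at 18 h were 1, and Mki67 at 18 h was at -0.2609. The 20 CPM filter, which tests fewer genes, gave 1 lower member between the times, and voom gave 1 higher. Samples with the same replicate number showed no strong shared deviation by title (1 of 13 pairs with a correlation over 0.1, range -0.21 to 0.15). By description there was none either (0 of 13, -0.21 to 0.03). This check cannot exclude that samples with the same number were handled together. With a replicate block by title, 25 members were lower at 18 h, 24 at 3 d, and 0 were higher between the times. With a block by description the counts were 24, 25 and 1, with 1 higher wider-list gene at 3 d and 1 between the times. Genes lower in all at 18 h and 3 d were 1244 and 903 with the block by title, and 1232 and 951 by description. The Rpa1 estimate at 18 h (-0.09, not called) was 0.039 with voom and ran from -0.227 to 0.061 over the fits without 1 library, above 0 only without vehicle replicate 2. The cause of these changes was not tested. At 0.471 to 1.11 CPM per count, depth limits Dut, Hells, Slbp, Pola1, Clspn and E2f8.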
